A study of Mus musculus with 6 samples.

Results

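The MS4A genes of myeloid cells were followed in mouse bone marrow cultured with medium from renal tumour cells. The 7 genes Ms4a3, Ms4a4a, Ms4a4c, Ms4a6b, Ms4a6c, Ms4a6d and Ms4a7 were taken by their Ensembl identifiers from the 45706 genes of the count table, and all 7 had enough counts to be among the 15141 genes tested. RNA-seq libraries came from marrow given medium conditioned by cells of the clear cell renal cell carcinoma (ccRCC) lines VpR83, VpR99, VpR126 and VpR2020, with 1 library for each of the 4 lines, and from marrow given control medium (2 libraries). The lines were the replicates of conditioned medium, so lines could not be tested against each other. The series' design text calls the comparator freshly isolated marrow, and the headers of the control columns name no medium, so exposure to tumour cell medium and time in culture cannot be told apart. The sources used here do not give animals, strain, culture times or the makeup of the media. They do not explain the tags Ctrl, T1 and LT2 in the column headers of VpR83, VpR99 and VpR126. No label says that libraries came from separate cultures or animals, so a p-value measures the spread between these libraries, which may be partly technical.

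MS4A proteins cross the membrane repeatedly and sit beside immune receptors, whose assembly, trafficking or signalling they adjust. The founding members are CD20 of B cells, encoded by Ms4a1, and the beta chain of the high-affinity IgE receptor of mast cells and basophils, encoded by Ms4a2. Among the myeloid members, Ms4a3 is a gene of granulocyte-monocyte progenitors, and its promoter is used in mice to trace the descendants of these cells. Ms4a4a and Ms4a7 are genes of tissue macrophages, and Ms4a6d encodes a protein found in mouse macrophages. Ms4a4c, Ms4a6b and Ms4a6c belong to local expansions of the family in the mouse, where human has fewer genes.

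The 7 genes lay within 320 kb of chromosome 19 (11321039 to 11640851, GRCm38). Some pairs of these neighbours were alike in sequence. Promoters are compared here, and the likeness of transcripts, which bears on how safely reads could be assigned to a gene, is given further below. RefSeq promoters, from 250 bases before to 50 bases after an annotated start, were at hand for 6 of the 7 genes, all but Ms4a6d. Among all Ms4a promoters 170 pairs were compared. An exact run of at least 15 bases was shared by 2 pairs. The first pair, Ms4a6b (chr19:11518309-11518608, plus strand, GRCm38.p6) and Ms4a6c (chr19:11469118-11469417, plus strand), shared runs of 48 and 24 bases. The other pair was Ms4a4c (chr19:11407411-11407710, plus strand) and the lymphoid gene Ms4a4b (chr19:11443308-11443607, plus strand), with 5 runs of 17 to 20 bases. The sequences of both pairs are shown because they were the only promoter pairs with such a run. Whether the runs bear on the levels was not tested. Capitals mark the shared runs.
Ms4a6b: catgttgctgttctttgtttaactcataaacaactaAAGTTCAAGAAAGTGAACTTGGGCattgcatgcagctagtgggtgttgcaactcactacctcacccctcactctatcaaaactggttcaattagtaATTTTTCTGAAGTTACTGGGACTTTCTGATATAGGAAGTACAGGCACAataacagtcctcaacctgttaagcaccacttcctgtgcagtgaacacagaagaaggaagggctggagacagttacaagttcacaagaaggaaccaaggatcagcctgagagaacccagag
Ms4a6c: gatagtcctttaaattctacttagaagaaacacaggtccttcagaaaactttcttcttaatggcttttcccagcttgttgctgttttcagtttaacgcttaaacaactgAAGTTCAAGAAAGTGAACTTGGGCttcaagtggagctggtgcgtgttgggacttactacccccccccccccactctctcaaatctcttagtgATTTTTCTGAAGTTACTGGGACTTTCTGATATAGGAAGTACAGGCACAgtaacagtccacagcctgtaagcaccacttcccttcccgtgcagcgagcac
Ms4a4b: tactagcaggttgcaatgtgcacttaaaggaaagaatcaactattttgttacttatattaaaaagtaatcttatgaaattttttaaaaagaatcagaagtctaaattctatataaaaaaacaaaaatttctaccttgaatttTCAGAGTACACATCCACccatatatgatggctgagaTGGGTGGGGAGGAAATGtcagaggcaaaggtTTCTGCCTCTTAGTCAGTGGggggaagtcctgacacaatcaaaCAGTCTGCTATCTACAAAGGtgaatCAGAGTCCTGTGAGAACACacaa
Ms4a4c: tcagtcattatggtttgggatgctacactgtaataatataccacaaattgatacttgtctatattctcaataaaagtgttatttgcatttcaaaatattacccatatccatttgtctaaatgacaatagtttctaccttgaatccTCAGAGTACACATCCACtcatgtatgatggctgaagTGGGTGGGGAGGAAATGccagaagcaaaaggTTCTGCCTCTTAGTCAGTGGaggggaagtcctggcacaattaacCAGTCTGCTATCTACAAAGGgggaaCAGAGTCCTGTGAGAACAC
The 48-base run began 118 bases before the start in Ms4a6b and 49 bases before it in Ms4a6c. A shared run is a description of the sequence and does not show that a factor binds there.

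Depth differed by library. VpR99 held 129120559 counts, and the other 5 libraries held 18629708 to 28055913. A count of 0 in a library allows up to 3 counts, or 0.0232 CPM in VpR99 and 0.161 CPM in control replicate 2, for counting error only. Library pairs differed by more than sampling noise, the controls least, with a chi-square over genes of 27.9 per degree of freedom. These are bulk libraries, in which fewer cells of a type and less RNA per cell cannot be told apart. CPM are counts relative to library size, and all CPM below are scaled by TMM, which corrects for differences in RNA makeup.

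Medium from ccRCC cells went with a different set of MS4A transcripts in marrow. Ms4a4a, Ms4a6b, Ms4a6c, Ms4a6d and Ms4a7 rose under conditioned medium, by 2.82-fold for Ms4a6c to 69.1-fold for Ms4a7, and none of the 7 genes was called lower. Ms4a3 and Ms4a4c did not pass the test, and both differed widely between lines. Ms4a3 lay below both controls in all 4 lines, but only just in VpR99, and Ms4a4c lay above both in 2 lines and below both in 2. Thus 5 of 7 genes were called higher (edgeR's quasi-likelihood test, Benjamini-Hochberg adjusted p below 0.05 over all genes tested), where 22.5% of all genes were called higher and 42.2% were called in either direction. The median log2 fold change of the 7 genes was 2.19, against -0.01 over all genes tested. The groups did not overlap in 6 of the 7 genes, with the 4 conditioned libraries either all above or all below the controls. This held for 65.3% of all genes. For Ms4a3 it rests on VpR99 at 147.98 CPM against 148.26 CPM in control replicate 2. edgeR called a fall in 0 of the 7 genes and in 19.7% of all genes, and 0 of the 7 fell at an unadjusted p below 0.05 or with limma voom. DESeq2 gave no adjusted p for Ms4a3 and so could not call it, and it called none of the others lower. Without VpR99, edgeR called 1 of the 7 lower, Ms4a3.

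**Figure D1:**
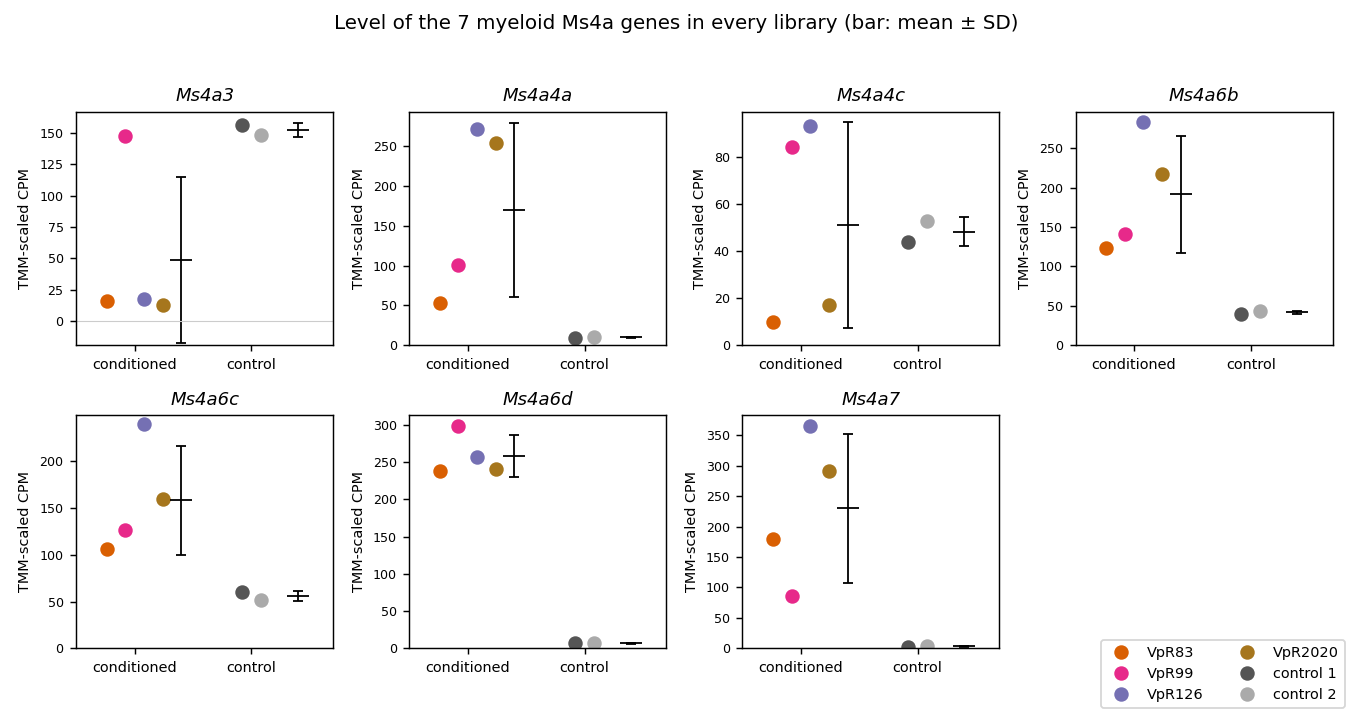
Level of each of the 7 genes in TMM-scaled CPM on a linear axis, with a point for each library, coloured by line or control replicate, conditioned libraries left of the controls, and a bar for the group mean ± SD. The 4 conditioned points of Ms4a6d lie between 238 and 298 CPM, those of Ms4a4c lie above and below the controls, and VpR99 stands with the controls for Ms4a3.

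Ms4a7, a gene of macrophages, had the largest fold change of the 7 genes. Its level was 179 CPM under VpR83 medium, 85.9 CPM under VpR99, 364 CPM under VpR126 and 291 CPM under VpR2020, against 3.13 and 3.52 CPM in control replicates 1 and 2. Every conditioned library stood above both controls, and VpR99 was the lowest of them. The means were 230.0 ± 122 CPM in conditioned medium and 3.33 ± 0.277 CPM in control medium (SD, n = 4 and 2), a log2 fold change of 6.11 ± 0.74 (SE, edgeR adjusted p = 0.0020). Ms4a7 (ENSMUSG00000024672) lies on the minus strand at 11321039 to 11336146. In the controls it was the member with the fewest counts, 94 and 75.

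Ms4a6d was the most even of the 7 genes across lines. The mouse protein is reported to act with the complement receptor VSIG4 in restraining the NLRP3 inflammasome of macrophages. Its level was 238 CPM under VpR83 medium, 298 CPM under VpR99, 257 CPM under VpR126 and 240.4 CPM under VpR2020, against 6.63 and 7.56 CPM in the controls. The highest line was only 1.25-fold above the lowest, and no conditioned library came near a control. The means were 258 ± 27.9 CPM in conditioned and 7.09 ± 0.660 CPM in control medium, or 5.19 ± 0.21 on the log2 scale (edgeR adjusted p = 8.6e-05). Ms4a6d (ENSMUSG00000024679) lies on the minus strand at 11586604 to 11604849.

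Ms4a4a encodes a macrophage protein that associates with the fungal pattern receptor dectin-1. It reached 53.1 CPM under VpR83 medium, 100.8 CPM under VpR99, 272 CPM under VpR126 and 254 CPM under VpR2020, against 9.22 and 10.6 CPM in the controls. All conditioned libraries lay above both controls, with VpR126 and VpR2020 together at the top and VpR83 at the bottom, a range of 5.12-fold over lines. The means of 169.9 ± 109 CPM in conditioned and 9.89 ± 0.948 CPM in control medium differed by 4.10 ± 0.80 on the log2 scale (edgeR adjusted p = 0.0091). Without control replicate 1 the adjusted p was 0.079 and without control replicate 2 it was 0.071, and over all alternatives it ranged from 1.9e-09 to 0.079. Ms4a4a (ENSMUSG00000101389) lies on the plus strand at 11375523 to 11392790.

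Ms4a6b and Ms4a6c, the pair with the long shared promoter run, rose by smaller folds and with similar profiles. Ms4a6b had 123 CPM under VpR83 medium, 141 CPM under VpR99, 284 CPM under VpR126 and 217 CPM under VpR2020, against 40.3 and 43.4 CPM in the controls. Ms4a6c had 106 CPM under VpR83 medium, 127 CPM under VpR99, 239 CPM under VpR126 and 159.7 CPM under VpR2020, against 59.9 and 52.0 CPM in the controls. Both genes put the lines in the same order, VpR83 lowest and VpR126 highest, and no conditioned library of either overlapped a control. The log2 fold change was 2.19 ± 0.39 for Ms4a6b (edgeR adjusted p = 0.0066) and 1.5 ± 0.35 for Ms4a6c (edgeR adjusted p = 0.017). Neither call held without a control. For Ms4a6b the adjusted p was then 0.064 without replicate 1 and 0.057 without replicate 2, within a range of 2.5e-07 to 0.064 over its alternatives. For Ms4a6c it was 0.094 and 0.11, within a range of 0.00030 to 0.11. Ms4a6b (ENSMUSG00000024677) lies at 11516512 to 11531256 and Ms4a6c (ENSMUSG00000079419) at 11469366 to 11482192, both on the plus strand.

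Reads of this pair may be shared or misassigned to a limited degree. Of the 50-base windows of the annotated Ms4a6c transcripts, 5.85% also occurred in Ms4a6b, and 3.44% of the Ms4a6b windows occurred in Ms4a6c or Ms4a6d. Over transcripts of all genes on the same strand, 10.5% of the Ms4a6c windows were shared. The share with other Ms4a genes was 8.19% for Ms4a4c, with Ms4a4b and Ms4a4d, and 2.31% for Ms4a6d, with Ms4a6b. Ms4a3, Ms4a4a and Ms4a7 shared no window with another Ms4a gene. Ms4a6c also shares 1088 exonic bases, and 49.6% of its windows, with BE692007 on the opposite strand. The strand setting of the counting is not given, so their reads cannot be told apart with certainty. BE692007 had 17.9, 18.3, 50.4 and 28.0 CPM under VpR83, VpR99, VpR126 and VpR2020 medium, against 6.46 and 10.8 CPM in the controls. Adding its counts to those of Ms4a6c, a check chosen after seeing the data, gave 1.53 on the log2 scale (edgeR adjusted p = 0.018). The check cannot restore reads of the overlap that the counting may have left out.

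Ms4a4c split the lines. The gene is expressed in mouse monocytes. It had 84.3 CPM under VpR99 medium and 93.0 CPM under VpR126, which lay above both controls, and 9.95 CPM under VpR83 and 17.0 CPM under VpR2020, which lay below both. The controls had 43.9 and 52.8 CPM. The means of 51.1 ± 43.6 CPM in conditioned and 48.3 ± 6.26 CPM in control medium were therefore almost equal, with a log2 difference of 0.08 ± 0.90 (edgeR adjusted p = 0.95), although the lines spanned 9.35-fold. Over the alternatives the log2 fold change ran from -0.40 to 0.43 without a call. Ms4a4c (ENSMUSG00000024675) lies on the plus strand at 11404770 to 11427246.

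Ms4a3, the progenitor gene whose human protein (HTm4) binds the cell cycle kinase CDK2 and its phosphatase, was set apart by VpR99. It had 16.0 CPM under VpR83 medium, 17.7 CPM under VpR126 and 12.8 CPM under VpR2020, but 148 CPM under VpR99. The controls had 156 and 148 CPM. VpR99 and control replicate 2 could hardly be told apart. VpR99 was at 97.2% of the control mean, and the other 3 lines lay 3.10 to 3.58 below it on the log2 scale. The means were 48.6 ± 66.3 CPM in conditioned and 152 ± 5.6 CPM in control medium, or -1.64 ± 1.02 on the log2 scale (edgeR adjusted p = 0.23). Without VpR99 it was -3.29 (edgeR adjusted p = 0.00056), and the adjusted p ranged up to 0.47 over the alternatives. Ms4a3 (ENSMUSG00000024681) lies on the minus strand at 11629496 to 11640851.

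**Figure D2:**
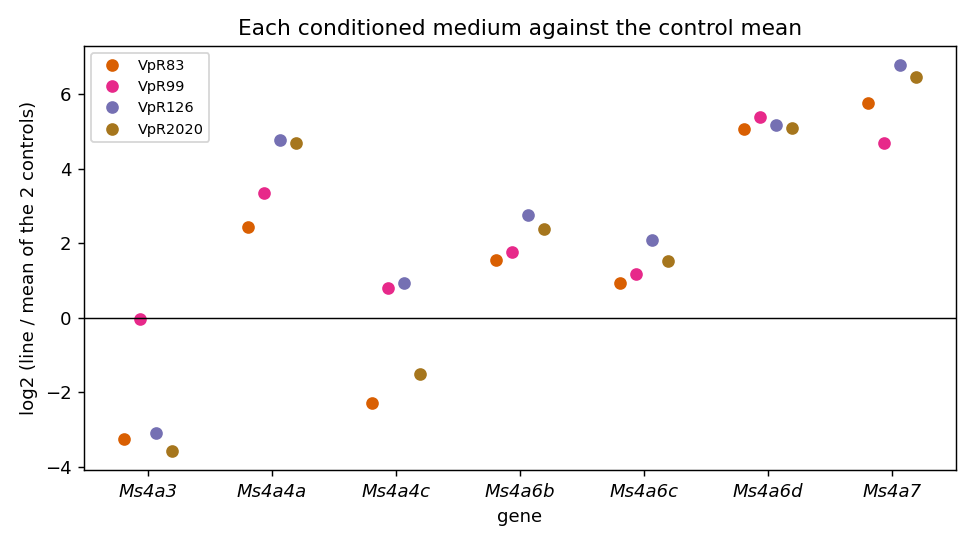
Log2 ratio of each conditioned library to the mean of the controls for the 7 genes, with a marker for each line. VpR99 is near 0 for Ms4a3 while the other lines are at -3.10 or below, the lines lie on both sides of 0 for Ms4a4c, and the 4 markers nearly coincide for Ms4a6d.

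The line order was not the same for every gene. VpR126 gave the highest level of 5 of the 7 genes and VpR99 of the other 2, Ms4a3 and Ms4a6d. VpR83 gave the lowest level of 5 genes, VpR99 of Ms4a7 and VpR2020 of Ms4a3. With 1 library per line, these orders carry no test.

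The makeup of the family was compared between genes as CPM per kb of exon. In conditioned medium Ms4a4a had the highest mean level, 203 ± 131 CPM per kb, followed by Ms4a6d with 149 ± 16.1, Ms4a6c with 77.1 ± 28.6, Ms4a7 with 51.6 ± 27.5, Ms4a6b with 42.7 ± 16.5, Ms4a4c with 29.2 ± 24.9 and Ms4a3 with 25.8 ± 35.2 CPM per kb. The step between Ms4a6d and Ms4a6c was the only step between neighbours in this order that exceeded the larger of their SDs. In control medium Ms4a3 came first with 80.8 ± 2.97 CPM per kb, followed by Ms4a4c with 27.6 ± 3.58, Ms4a6c with 27.3 ± 2.72, Ms4a4a with 11.8 ± 1.13, Ms4a6b with 9.32 ± 0.493, Ms4a6d with 4.09 ± 0.38 and Ms4a7 with 0.747 ± 0.0622 CPM per kb. There every step but that between Ms4a4c and Ms4a6c exceeded the larger SD. The gene at the top of the control order was thus at the bottom of the conditioned order, by its mean. This did not hold in every line. Under VpR99 medium Ms4a3 had 78.5 CPM per kb, against 82.9 and 78.7 in the controls. Under VpR83 medium it stood above Ms4a4c, at 8.51 against 5.68 CPM per kb.

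Summed over the 7 genes, the level was 334 CPM per kb under VpR83 medium, 532 under VpR99, 797 under VpR126 and 651 under VpR2020, and 162 CPM per kb in each control. Ms4a3 made up 2.54%, 14.8%, 1.18% and 1.04% of that sum under VpR83, VpR99, VpR126 and VpR2020 medium, against 51.3% and 48.7% in the controls. Ms4a4a held 19.0% and 22.7% under VpR83 and VpR99 medium and 40.8% and 46.7% under VpR126 and VpR2020, against 6.82% and 7.82% in the controls. Ms4a6d held 41.0%, 32.3%, 18.6% and 21.3% in the same order of lines, against 2.36% and 2.69% in the controls. Per kb, Ms4a6d was the leading gene under VpR83 and VpR99 medium, and Ms4a4a under the other 2 lines. Shares of raw counts, which do not correct for gene length, gave another order. By counts Ms4a7 led under VpR126 medium with 23.9% and under VpR2020 medium with 24.4%, where Ms4a4a held 17.8% and 21.3%. Under VpR83 and VpR99 medium Ms4a6d also led by counts, with 32.8% and 30.3%, and Ms4a4a held 7.31% and 10.2%. In the controls Ms4a4a held 2.89% and 3.32% of the counts.

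**Figure D3:**
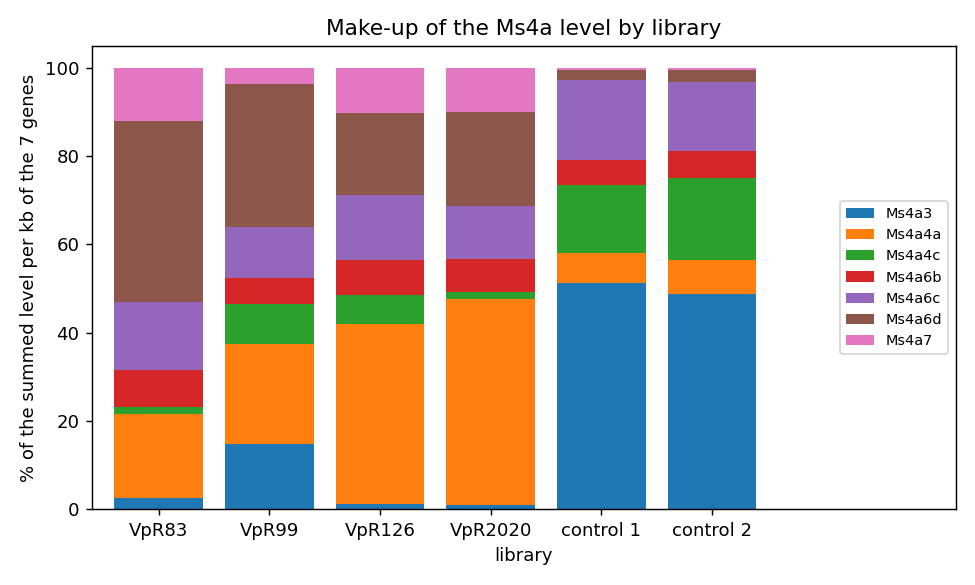
Share of the summed level per kb held by each of the 7 genes, in percent, as stacked bars with 1 bar per library, conditioned libraries left of the controls. Ms4a3 holds at most 14.8% in a conditioned library, against 51.3% and 48.7% in the controls.

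Genes with the most similar profile over the 6 libraries were sought among 9957 protein-coding genes, by the root mean square (RMS) difference of centred log2 CPM. This describes likeness over 6 libraries only, and genes that differ between the groups resemble each other for that reason alone. For Ms4a3 the nearest genes were Elane, which encodes neutrophil elastase (RMS difference 0.243), and the skin aspartic protease gene Asprv1 (0.341). Elane had 109, 587, 97.5 and 76.4 CPM under VpR83, VpR99, VpR126 and VpR2020 medium, against 955 and 879 CPM in the controls, so VpR99 was again the highest line.

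For Ms4a6d the nearest were the ubiquitin ligase gene Rnf128 (0.128) and Mrc1, the mannose receptor gene of macrophages (0.177). For Ms4a7 they were the chemerin receptor gene Cmklr1 (0.283) and the complement gene C1qb (0.297), and for Ms4a4a the interleukin 1 alpha gene Il1a (0.288) and Rhobtb1 (0.373). Ms4a4c was nearest to the MHC class I-like gene H2-T24 (0.232) and to Il1rn, which encodes the interleukin 1 receptor antagonist (0.278). Il1rn had 190 CPM under VpR99 medium and 158 CPM under VpR126, but 16.2 CPM under VpR83 and 24.0 CPM under VpR2020, against 53.4 and 75.0 CPM in the controls. It thus split the lines in the way Ms4a4c did.

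Ms4a6b was nearest to the DNA repair gene Dclre1c (0.132) and to Fam102b (0.167), and Ms4a6c to the haem transporter gene Slc48a1 (0.0993) and to Vcpip1 (0.144). Their profiles were common, with 583 genes within 0.5 of Ms4a6b and 1491 within 0.5 of Ms4a6c. There were 16 within 0.5 of Ms4a3, 6 of Ms4a4a, 12 of Ms4a4c, 32 of Ms4a6d and 11 of Ms4a7. Of the 21 pairs among the 7 genes, Ms4a6b and Ms4a6c were closest, with an RMS difference of 0.346, and Ms4a3 and Ms4a7 were farthest apart, with 4.33. Ms4a4b and Ms4a4c, the other pair with shared promoter runs, differed by 1.07.

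A list of further family members was read from the same fit. Of its 13 genes, 11 Ms4a genes and the related Tmem176a and Tmem176b, 7 had enough counts. Among these 1 rose, 2 fell and 4 did not pass, with a median log2 fold change of -1.91. With 22.5% of all genes called higher and 19.7% lower, these counts are no result about the list, and the genes are described singly. Ms4a14 rose, with 21.7, 11.7, 62.3 and 34.9 CPM under VpR83, VpR99, VpR126 and VpR2020 medium against 0.300 and 0.235 CPM in the controls, or 6.90 ± 0.95 on the log2 scale (edgeR adjusted p = 0.0029). Its lines stood in the order of Ms4a7, VpR99 lowest and VpR126 highest, and the controls rest on 9 and 5 counts. Ms4a14 kept its call in every alternative run.

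The lymphoid and mast cell members Ms4a1, Ms4a2 and Ms4a4b lay below both controls in every conditioned library. Ms4a2 fell to 0.549, 2.55, 4.43 and 1.38 CPM under VpR83, VpR99, VpR126 and VpR2020 medium, against 19.1 and 18.8 CPM in the controls (log2 fold change -3.08 ± 0.68, edgeR adjusted p = 0.013). Ms4a4b, whose mouse protein associates with the receptor GITR on T cells, fell to 3.0, 7.45, 7.05 and 5.14 CPM, against 23.1 and 22.1 CPM (-1.99 ± 0.35, edgeR adjusted p = 0.0064). Without control replicate 1 neither call held (adjusted p = 0.073 for Ms4a2 and 0.051 for Ms4a4b), and without control replicate 2 that of Ms4a2 did not (0.071). Over the alternatives the adjusted p ran from 5.0e-05 to 0.073 for Ms4a2 and from 3.9e-06 to 0.051 for Ms4a4b.

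The CD20 gene Ms4a1 had 1.76, 15.3, 38.8 and 5.69 CPM in the same order of lines, against 72.0 and 92.0 CPM in the controls. All conditioned libraries lay below both controls, yet the lines spread so widely that the log2 fold change of -2.41 ± 0.99 missed the threshold (edgeR adjusted p = 0.091). It passed with DESeq2 (0.022), with limma voom (0.028) and without VpR126 (0.020), within a range of 0.020 to 0.27. Ms4a8a, at 0.256, 1.20, 3.55 and 0.995 CPM against 5.79 and 5.45 CPM, behaved alike (-1.91 ± 0.83, edgeR adjusted p = 0.11) and passed under the same 3 alternatives, within a range of 0.015 to 0.28.

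Tmem176a and Tmem176b, neighbours on another chromosome that encode related membrane proteins, were set by 1 line. Tmem176b had 41.5, 7.64, 378 and 64.0 CPM under VpR83, VpR99, VpR126 and VpR2020 medium, against 34.9 and 37.0 CPM in the controls, and Tmem176a had 17.2, 4.08, 178 and 28.0 CPM, against 14.5 in both. VpR126 lay far above and VpR99 below the controls for both genes. Neither passed the test, with log2 fold changes of 1.77 ± 1.40 for Tmem176b (edgeR adjusted p = 0.34) and 1.97 ± 1.42 for Tmem176a (0.30). Without VpR126 these were 0.07 and 0.18. Ms4a4d, Ms4a5, Ms4a13 and Ms4a15 had 27, 2, 5 and 5 counts in all 6 libraries together, and Ms4a10 and Ms4a18 had 0. Ms4a12, which was not in the list, had 0 counts as well.

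**Figure D4:**
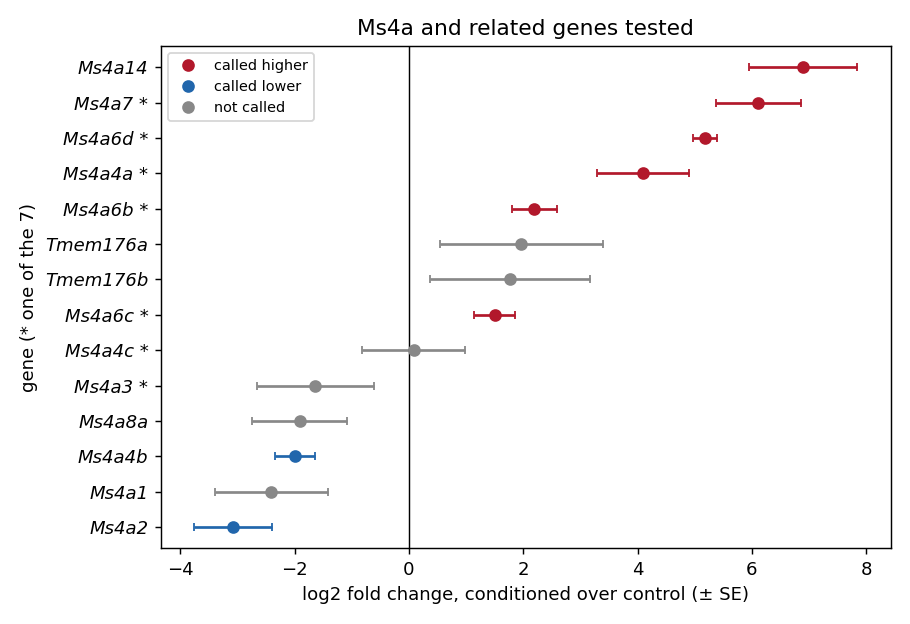
Log2 fold change of conditioned over control medium, with bars of ± SE, for the 7 myeloid genes (marked by an asterisk) and the 7 other tested genes of the family, coloured by call. Ms4a14 is at the top with 6.90, above Ms4a7 with 6.11, and Ms4a2 is at the bottom with -3.08.

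Among genes whose proteins are reported to work with MS4A proteins, 20 were tested, of which 6 rose, 4 fell and 10 did not pass, with a median log2 fold change of 0.44. These shares are near those of all genes, of which 22.5% were called higher and 19.7% lower, so the counts are no result about the list. Trem2, a lipid receptor gene of macrophages whose human protein is linked to MS4A4A, had 409, 217, 296 and 508 CPM under VpR83, VpR99, VpR126 and VpR2020 medium, against 10.7 and 7.75 CPM in the controls (5.27 ± 0.47, edgeR adjusted p = 0.00091). Its signalling adaptor gene Tyrobp did not pass, with 750.1 ± 156 CPM in conditioned and 682 ± 0.423 CPM in control medium (0.14 ± 0.23, edgeR adjusted p = 0.65). The dectin-1 gene Clec7a did not pass either, at 68.3, 111, 406 and 369 CPM against 128 and 77.8 CPM (1.21 ± 0.78, edgeR adjusted p = 0.25). As for Ms4a4a, VpR126 and VpR2020 were its highest lines.

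On the Ms4a6d side, Vsig4 was close to absent, with 0.463 ± 0.125 CPM in conditioned and 0.548 ± 0.0217 CPM in control medium. The inflammasome gene Nlrp3 rose by 1.46 ± 0.44 on the log2 scale (edgeR adjusted p = 0.038), but the adjusted p was 0.055 under upper-quartile scaling, 0.051 with library totals and 0.056 to 0.21 without VpR83, VpR2020 or either control. Il1b, the interleukin 1 beta gene, whose product the inflammasome matures, had 36.1, 51.8, 53.3 and 18.7 CPM in conditioned medium against 394 and 83.5 CPM in the controls (-2.58 ± 0.63, edgeR adjusted p = 0.019). The controls themselves differed strongly, and without control replicate 1 the log2 fold change was -1.06 (adjusted p = 0.21). Without a filter on low counts the adjusted p was 0.077.

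On the Ms4a2 side the IgE receptor genes parted. Fcer1a, the IgE-binding chain, had 0, 0.664, 1.18 and 0.332 CPM in conditioned medium against 12.3 and 11.8 CPM in the controls (-4.44 ± 1.0, edgeR adjusted p = 0.014), and -5.24 with limma voom. Fcer1g, the signalling chain that macrophages also use, rose by 0.97 ± 0.21 on the log2 scale (edgeR adjusted p = 0.013). Neither call held without a control, with adjusted p of 0.077 and 0.073 for Fcer1a and 0.12 and 0.070 for Fcer1g without replicates 1 and 2. Cd84, an immune cell adhesion receptor gene, rose by 2.17 ± 0.22 (edgeR adjusted p = 0.0012).

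Of the partners of MS4A3 and Ms4a4b, Cdk2 fell by 0.76 on the log2 scale (edgeR adjusted p = 0.039), and Cdkn3, the phosphatase gene, had 15.2 ± 6.82 CPM in conditioned and 34.9 ± 0.781 CPM in control medium without passing (-1.19 ± 0.43, edgeR adjusted p = 0.063). Cdk2 lost its call without a filter (0.052) and without VpR83 (0.056), VpR2020 (0.091) or a control (0.16 and 0.18), and Cdkn3 passed in 5 alternatives, with adjusted p of 0.024 to 0.21 over all of them. Tnfrsf18, the GITR gene, fell by 1.60 (edgeR adjusted p = 0.028). The log2 fold change was about the same, at -1.54 to -1.60, without VpR2020 or a control, but the call was lost (adjusted p = 0.067 without VpR2020 and 0.13 without either control). Tyrobp, Clec7a, Vsig4, Cdkn3 and Fcer1g were picked for description after their values were seen.

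Markers of the cells that carry MS4A genes differed between the groups as well, and their part in the results above was not tested. Over all genes tested, 22.5% were called higher and 19.7% lower, and the counts below are to be read beside these shares. No list was tested as a set. Of 16 macrophage markers, Trem2 and Vsig4 included, 13 rose, and their summed level was 7130 to 27869.5 CPM in conditioned libraries against 691 to 758 CPM in the controls. The defining markers Adgre1 (F4/80), at 988 ± 523 CPM in conditioned and 39.1 ± 4.74 CPM in control medium, and C1qb, at 1926 ± 858 against 41.3 ± 5.27 CPM, rose by 4.66 ± 0.59 and 5.54 ± 0.62 on the log2 scale (edgeR adjusted p = 0.0022 and 0.0016). VpR99 was the lowest line for 12 of the 16, as it was for Ms4a7, and Apoe had 744 CPM there against 6487 to 13769 CPM in the other lines. Mrc1 was as even over lines as Ms4a6d, with 1171 to 1457 CPM in conditioned medium against 41.1 and 35.8 CPM in the controls. Of the 3 markers that did not pass, Vsig4 is described above, Cd163 had 78.9 CPM under VpR126 medium and 6.75 to 12.7 CPM under the other lines, against 23.0 and 21.8 CPM in the controls, and Lyve1 lay below both controls in every line. Lyve1 had 0.0732, 0.162, 0.338 and 0.885 CPM under VpR83, VpR99, VpR126 and VpR2020 medium, against 1.40 and 1.97 CPM in the controls (-2.33 ± 0.82, edgeR adjusted p = 0.061). In 7 of 13 alternatives 1 macrophage marker was called lower. Folr2, which was highest in VpR99 with 34.8 CPM against 3.43 to 13.8 CPM in the other lines, went against this order.

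Beside 19.7% of all genes called lower, 4 of 8 other genes of progenitors and primary granules fell and 4 did not pass. Without VpR99 all 8 fell. Their summed level was 528 CPM under VpR83 medium, 2462 CPM under VpR99, 564 CPM under VpR126 and 407 CPM under VpR2020, against 3798 to 3911 CPM in the controls. VpR99 was the highest line for 7 of the 8, as it was for Ms4a3, and also for 6 of 10 late neutrophil and 5 of 7 classical monocyte markers. Flt3 went the other way, with 2.11 CPM under VpR99 medium against 4.48 to 6.51 CPM in the other lines and 31.8 and 28.3 CPM in the controls. Kit had 17.8 CPM under VpR99 medium, well below the controls at 70.4 and 75.4 CPM. Prtn3 had 658 CPM under VpR99 medium, between the controls at 672 and 604 CPM. Ctsg had 305 CPM there, above both controls at 273 and 218 CPM. The other genes of the list lay below both controls under VpR99 medium. Cebpe, a transcription factor gene of granule formation, fell by 2.81 on the log2 scale (edgeR adjusted p = 0.0054). Mpo, the myeloperoxidase gene, had 175, 830.2, 202 and 96.4 CPM under VpR83, VpR99, VpR126 and VpR2020 medium, against 1734 and 1796 CPM in the controls, and fell by 2.44 (edgeR adjusted p = 0.048). Without VpR99 its log2 fold change was -3.48 (0.0018), and its call was lost without any other library (0.071 to 0.16) and without a filter (0.18). Without control replicate 2 only 2 of the 8 were called.

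**Figure D5:**
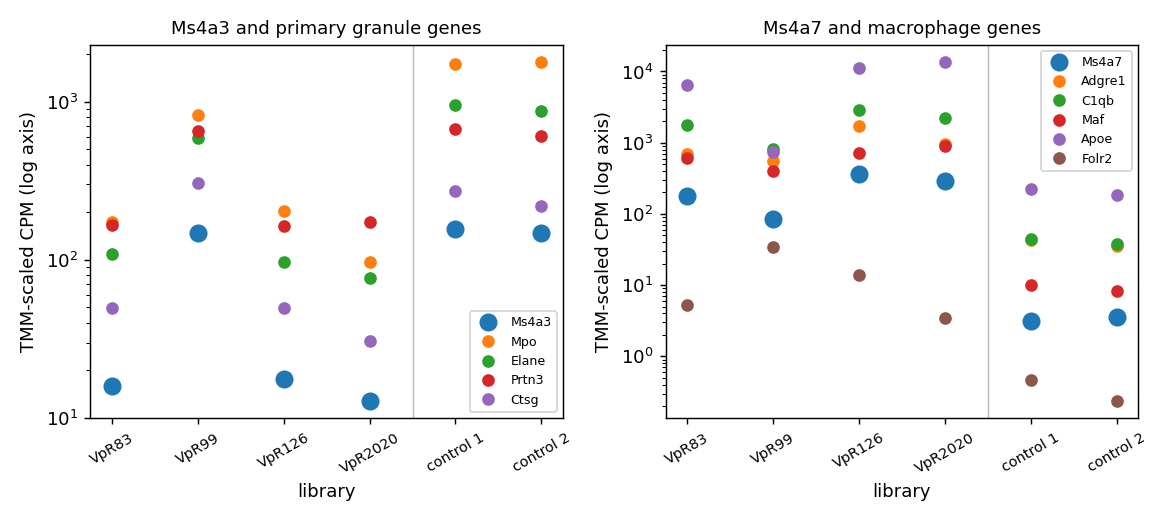
TMM-scaled CPM on a log axis in each library, conditioned libraries left of the controls, for Ms4a3 with 4 primary granule genes (left panel) and for Ms4a7 with 5 macrophage genes (right panel), where large points are the Ms4a gene. VpR99 stands with the controls for Ms4a3, at 148 CPM, and it is the highest line for the granule genes. It lies between the controls for Prtn3, above both for Ctsg and below both for Mpo and Elane. For Ms4a7, at 85.9 CPM, and for the macrophage genes except Folr2 it is the lowest line.

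Late neutrophil markers fell in 8 of 10 cases, with summed levels of 3130.1 to 15938 CPM in conditioned libraries against 80984 to 88408 CPM in the controls, and in 5 cases without control replicate 1. edgeR called 0 of 7 classical monocyte markers, with 3 higher and 1 lower at an unadjusted p below 0.05, and their sum was 2193 to 4871 CPM against 2578 to 2583 CPM, although DESeq2 called 2 higher and 1 lower, and 2 were called higher and 2 lower without VpR99. Without VpR126 or VpR2020, 2 and 1 of them were called higher. In the main analysis 22.5% of all genes were called higher and 19.7% lower. Of 6 nonclassical monocyte markers 3 fell, with sums of 254 to 506 CPM against 684 to 1088 CPM, and 1 without control replicate 1.

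The share called lower was 19.7% over all genes. B cell markers, which accompany Ms4a1, fell in 6 of 8 cases, with sums of 57.1 to 412 CPM in conditioned libraries against 1009 to 1152 CPM in the controls. Only 1 was called without a filter or without either control, and 3 without VpR99 or VpR2020. The lines stood in the same order for the B cell sum as for Ms4a1, VpR83 lowest and VpR126 highest. Mast cell and basophil markers, which accompany Ms4a2, fell in 6 of 6 cases tested, with sums of 11.05 to 82.7 CPM against 730.3 to 824 CPM, and 2 and 3 were called without control replicates 1 and 2. Their sum and Ms4a2 also put the lines in 1 order, VpR83 lowest and VpR126 highest. T and NK cell markers, which accompany Ms4a4b, fell in 8 of 8 cases, with sums of 4.37 to 17.0 CPM against 147 to 156 CPM, and Gzma was at 0 in all conditioned libraries. Erythroid markers summed to 0.251 to 4.94 CPM in conditioned libraries against 1669 to 4124 CPM in the controls. Epithelial markers, which would mark carried-over tumour cells, summed to 3.54 to 17.9 CPM against 18.8 to 21.3 CPM. Cdh1 gave most of this, with 3.15 to 17.3 CPM in conditioned libraries against 16.7 and 13.3 CPM in the controls. Krt8 and Krt19 were at 0 in all conditioned libraries, but Krt19 was at 0 in the controls too and Krt8 had only 2 and 5 counts there. Carry-over of tumour cells was not tested.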

How the data were processed

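RNA-seq was measured in 6 libraries of mouse bone marrow, 4 in conditioned and 2 in control medium, grouped by the sample labels. The authors deposited 1 table of raw counts, a whole number of reads for each Ensembl gene and library, with no normalization. Libraries were stranded Illumina TruSeq from total RNA, per the labels' protocols, and the submitters' processing notes name Trimmomatic 0.38, STAR 2.5.2b and build GRCm38. How reads were counted, with which strand setting and annotation release, was not given in the sources used here. Of 45706 identifiers, 45143 matched GENCODE M21, which gave symbols, coordinates and union exon lengths, and the rest took 0.0538% to 0.0828% of a library's counts.

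The analysis of the counts used edgeR 4.0.16 (R 4.3.3) with filterByExpr, TMM scaling and a robust quasi-likelihood test without covariates. P-values are two-sided and Benjamini-Hochberg adjusted over the 15141 genes that passed the filter, with calls made below 0.05. The procedure was run on simulated counts with 4-fold changes and the same spread for all genes. The spread between lines varied widely by gene here, so that run does not show the error rate in these data. SE were derived from the F statistic (the size of the log2 fold change over the root of F). Alternatives were RLE, upper-quartile and library-total scaling, no filter, DESeq2 1.42.0, limma 3.58.1 voom, VpR99 thinned, and each library left out in turn. With 1 control left, its spread was taken from the conditioned group.

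The 7 genes and the gene lists were chosen with earlier results of these data known. All 7 were named, and from each list its defining genes and the called genes with the largest changes. Likeness was the RMS difference of centred log2 CPM (prior count 2) among protein-coding genes with a mean of at least 5 CPM. Promoter sequences are from RefSeq (GRCm38.p6). Protein sequences were not used here.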

Additional observations from a re-analysis of the deposited data

Results flagged for a closer look

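In each of 40 genes checked, the highest and lowest conditioned library were set against the other conditioned libraries, and a library was marked where its gap to the nearest, as a ratio to the whole range, exceeded Dixon's 95% critical value for 4 values. For independent groups of normally distributed values, chance marks about 1 in 20. Levels in CPM may not be so distributed and several of the 40 genes vary together, so the marks cannot be set against that rate. Of the 40 genes, 7 were marked. The 40 did not include every gene described here, Cd163 for instance, so this number depends on which genes were checked. VpR99 stood above the other lines for Ms4a3, at 148 CPM against 12.8 to 17.7 CPM (gap ratio 0.963). It also did so for 4 primary granule genes. These were Mpo at 830.2 CPM against 96.4 to 202 CPM (0.855), Elane at 587 CPM against 76.4 to 109 CPM (0.937), Prtn3 at 658 CPM against 164 to 174 CPM (0.979) and Ctsg at 305 CPM against 30.7 to 49.6 CPM (0.931). VpR126 stood above the other lines for Tmem176a, at 178 CPM against 4.08 to 28.0 CPM (0.863), and for Tmem176b, at 378 CPM against 7.64 to 64.0 CPM (0.848). All 7 marks rest on the libraries VpR99 and VpR126.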

How the results depend on the processing

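Ms4a6d and Ms4a7 were called higher in all 13 alternatives, with log2 fold changes of 4.94 to 5.30 and 5.81 to 6.39. Leaving out each library in turn, the number of genes called ranged from 2201 to 7031, of the 7 myeloid genes 2 to 5 were called higher and 0 to 1 lower, of the other family members 0 to 4 were called lower, and of the partner genes 2 to 7 were called higher and 0 to 5 lower. The log2 fold change then ranged from -3.29 to -1.32 for Ms4a3, from 3.79 to 4.40 for Ms4a4a, from 1.95 to 2.36 for Ms4a6b and from 1.24 to 1.65 for Ms4a6c. DESeq2 and limma voom each called 4 other family members lower, DESeq2 gave no adjusted p for Ms4a3, and without a filter 2 partner genes were called lower. With raw counts in place of levels per kb, Ms4a3 held 47.8% of the sum in controls and Ms4a7 20.4% in conditioned and 1.04% in control medium, and Ms4a6d held 2.23% in controls, while Ms4a4a held 7.31% to 21.3% in conditioned libraries, against 19.0% to 46.7% per kb. Set against all Ms4a genes, the control shares were 43.1% for Ms4a3, 2.18% for Ms4a6d and 0.398% for Ms4a7, because the sum then holds more genes. Upper-quartile and library-total scaling put the all-gene median log2 fold change at -0.22 and -0.26, in place of -0.01, and turned that of Ms4a4c, never called, to -0.14 and -0.17. Higher genes made up 53.3% of the calls in the main analysis, 40.0% and 38.6% there. No paired analysis was possible because the conditioned libraries carry line names and no replicate numbers. With 2 controls the calls rest on little replication, and Ms4a14 in controls is limited by its counts.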
